A study of Mus musculus with 15 samples.

Results

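The axon guidance ligands and receptors described here are the semaphorins of classes 3 to 7, the plexins and neuropilins, the ephrins and Eph receptors, the Slit and Robo genes, the netrins and netrin-G genes, the Unc5 genes and Dcc. They were chosen by gene symbol alone, and 69 of the 22180 genes of the array table belong to them. They comprise 20 semaphorins, 9 plexins, 2 neuropilins, 8 ephrins, 13 Eph receptors, 3 Slit genes, 4 Robo genes, 3 netrins, 2 netrin-G genes, 4 Unc5 genes and Dcc. Of these, 36 are ligands and 33 are receptors. Each of the 15 RNA samples, 5 per group and all from C57BL/6 mice, was measured on its own whole-transcript Affymetrix array. In the double knockout (DKO), the genes for both forms of glycogen synthase kinase 3, Gsk3a and Gsk3b, are deleted, and the deletion is aimed at the granule neuron precursors of the cerebellum. In the Math1-Cre control, with the genotype Gska+-, GskBff, only Gsk3b is deleted, by a Cre recombinase driven by the promoter of Math1 (Atoh1), a transcription factor of these progenitors. The no-Cre control is called intact in the design text, but its sample descriptions also read Gska+-, so both controls are labelled with 1 altered Gsk3a allele. The description of no-Cre replicate 5 leaves out Gsk3b. Each library came from whole cerebella of 1 replicate. The age is given as postnatal day 1 in 1 field and as day 2 in another. The dissociated cells were passed over a density gradient to enrich these progenitors, so cells without Math1-driven Cre can be in every library.

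Guidance ligands and receptors steer growing axons and migrating neurons. Secreted class 3 semaphorins bind neuropilins and signal through plexins, and most other semaphorins bind plexins directly. Ephrins are membrane-bound ligands of Eph receptor tyrosine kinases, Slit proteins repel through Robo receptors, and netrins attract through Dcc or repel through Unc5 receptors. In the cerebellum, Sema6a and its receptor Plxna2 act in granule neuron migration in mice, and mouse Unc5c limits where granule neuron precursors spread. Several of the same families also pattern blood vessels: Ephb4 and Efnb2 mark veins and arteries, and Robo4, Unc5b and Plxnd1 are receptors of endothelial cells. Gsk-3 phosphorylates collapsin response mediator proteins downstream of semaphorins. It also belongs to the complex that degrades beta-catenin, the partner of the TCF/LEF transcription factors.

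Promoter sequences are shown for the 1 gene past the test threshold (Efna1), for the gene most clearly divided by the Gsk3a row (Sema7a), and for the 1 gene whose promoter held the TCF/LEF core motif (Nrp2). They run from 250 bases before to 50 bases after the annotated start and are from RefSeq, build GRCm38.p6: Efna1 at chr3:89280902-89281201 on the minus strand, Sema7a at chr9:57939862-57940161 on the plus strand and Nrp2 at chr1:62703067-62703366 on the plus strand. RefSeq lists 2 promoters for Efna1, of which 1 is shown.
Efna1: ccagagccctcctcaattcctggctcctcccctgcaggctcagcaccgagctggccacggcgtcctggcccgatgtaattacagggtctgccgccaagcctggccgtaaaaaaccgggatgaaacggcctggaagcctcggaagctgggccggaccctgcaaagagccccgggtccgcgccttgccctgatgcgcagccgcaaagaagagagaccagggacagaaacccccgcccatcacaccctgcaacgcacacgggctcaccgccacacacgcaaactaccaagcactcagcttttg
Sema7a: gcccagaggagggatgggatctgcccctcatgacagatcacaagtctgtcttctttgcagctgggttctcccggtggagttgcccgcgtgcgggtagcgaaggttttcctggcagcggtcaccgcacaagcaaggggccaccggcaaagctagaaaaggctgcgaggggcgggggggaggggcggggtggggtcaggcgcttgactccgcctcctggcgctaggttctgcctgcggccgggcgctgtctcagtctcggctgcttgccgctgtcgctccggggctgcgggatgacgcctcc
Nrp2: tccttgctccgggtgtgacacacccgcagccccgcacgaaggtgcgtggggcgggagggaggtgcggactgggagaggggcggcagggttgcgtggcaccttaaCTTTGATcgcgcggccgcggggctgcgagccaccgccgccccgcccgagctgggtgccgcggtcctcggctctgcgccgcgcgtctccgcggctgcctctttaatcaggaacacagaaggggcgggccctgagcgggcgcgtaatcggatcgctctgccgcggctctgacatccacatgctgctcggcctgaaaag
Capitals in Nrp2 mark the motif CTTTGAT, at position 105 of the 300 bases. CTTTGAT or its reverse complement ATCAAAG was present in 1 of 75 guidance gene promoters (1.33%), which belong to 59 of the 69 genes, against 1225 of 32851 promoters of all genes (3.73%). The Efna1 and Sema7a windows do not hold these letters.

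All values are log2 expression, so a difference of 1 is a 2-fold change, and levels of different genes are not set against each other. As a bound for background, the 95th percentile of 1390 olfactory and vomeronasal receptor genes, which the cerebellum is not known to use, was taken on each array. It ran between 4.65 and 5.58. Of the guidance genes, 56 were above it in all 15 libraries, and Epha1, Epha2, Robo3 and Sema3g were above it in none. Plxnb3 was above it in 3 libraries, Ntn3 and Sema3e in 11, and Efna1, Efna4, Epha10, Robo4, Sema3b and Sema3c in 14. Differences of genes near this bound can be compressed. The interquartile range over genes was 4.00 to 4.12 on 4 arrays (DKO 3, 4 and 5 and no-Cre 4), against 4.22 to 4.40 on the other 11. All 9 granule neuron progenitor markers and all 10 endothelial markers were above the bound in all 15 libraries, as were 8 of 8 Purkinje cell markers, 8 of 11 meningeal and pericyte markers and 4 of 8 oligodendrocyte lineage markers. Of 14 hindbrain Hox genes, 13 were above it in none. The marker lists, like the guidance genes, were read from bulk RNA, in which fewer cells of a type and less RNA per cell cannot be told apart.

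The row annotated to Gsk3a went against the label in 4 libraries. It read 9.47, 8.22, 9.37, 7.89 and 8.27 in DKO 1 to 5. It read 8.25, 8.03, 9.48, 9.50 and 9.51 in Math1-Cre 1 to 5, and 9.42 to 9.59 in the no-Cre libraries. DKO 1 and DKO 3 thus stood with the controls, and Math1-Cre 1 and 2 with the other DKO libraries. Gsk3b averaged 10.78 ± 0.14 in DKO, 10.78 ± 0.09 in Math1-Cre and 10.77 ± 0.10 in no-Cre libraries (SD, n = 5 each). Whether its probes lie in the deleted part of the gene was not tested. Every comparison was therefore made with all 15 libraries by label, and again with 11. The 11 leave out the mismatched DKO 1 and DKO 3 and the mismatched Math1-Cre 1 and Math1-Cre 2. Among the 11, every DKO library had a low Gsk3a row and every control a high one. Label and row therefore cannot be told apart in the 11-library comparisons. The choice of the 11 was made with earlier results of these data known. The Math1-Cre libraries are controls for Cre and for the loss of Gsk3b, and the no-Cre libraries for both kinases. The 2 DKO comparisons share the DKO libraries, and the 3 comparisons share groups pairwise, so their values are given side by side.

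**Figure D1:**
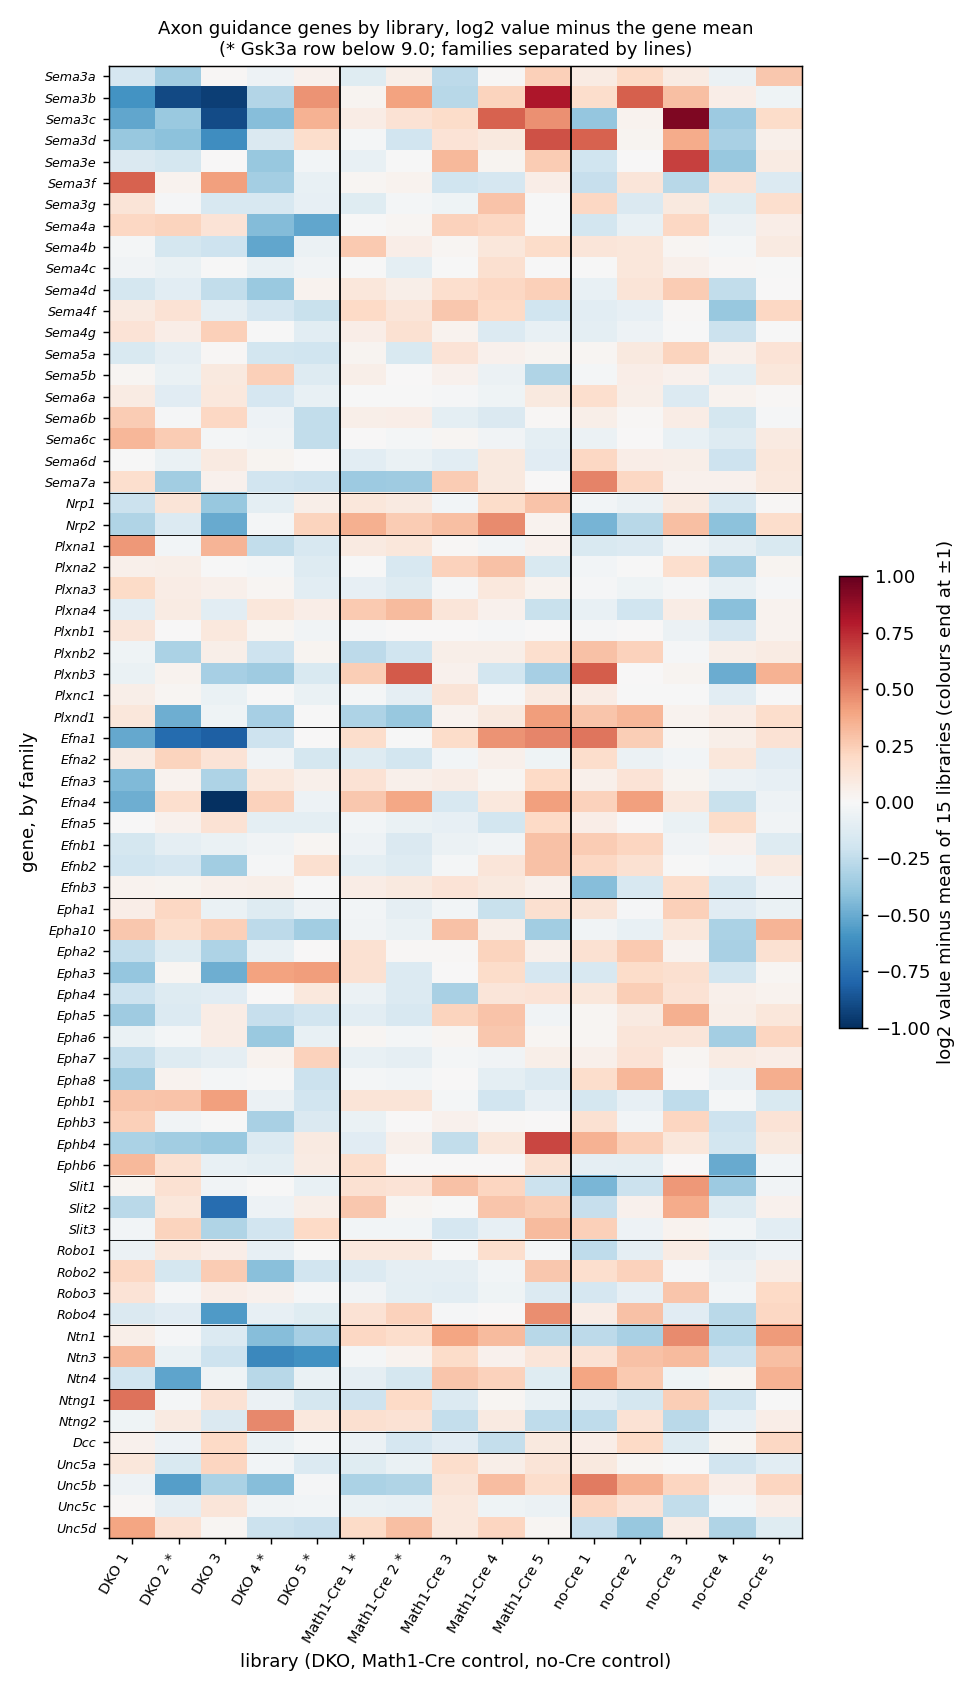
Levels of the 69 guidance genes by library, each as the difference from that gene's mean over 15 libraries (log2), grouped by family, with DKO, Math1-Cre and no-Cre libraries in columns, colours ending at ±1 and an asterisk where the Gsk3a row was below 9.0. DKO 1 and DKO 3 share low values of Efna4 (5.57 and 4.71) and high values of Sema3f (8.72 and 8.54) that the other DKO libraries lack.

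The ephrin Efna1, a membrane-anchored ligand of EphA receptors, was the 1 guidance gene that passed the threshold in any comparison. It fell in DKO libraries relative to Math1-Cre controls. Its values were 5.68, 5.42, 5.38, 5.99 and 6.20 in DKO 1 to 5, 6.37, 6.19, 6.38, 6.64 and 6.68 in Math1-Cre 1 to 5, and 6.73, 6.44, 6.21, 6.25 and 6.34 in no-Cre 1 to 5. All 5 DKO libraries were below all no-Cre libraries, and 4 of 5 were below all Math1-Cre libraries, DKO 5 at 6.20 standing just above Math1-Cre 2 at 6.19. The mean was 5.73 ± 0.36 in DKO and 6.45 ± 0.20 in Math1-Cre libraries (SD, n = 5 each). The difference was -0.72 ± 0.15 (SE), or 1.65-fold lower, with an adjusted p of 0.0497 by limma. Against no-Cre controls it was -0.66 ± 0.15, with a limma adjusted p of 0.0832. Among DKO libraries, DKO 1 and DKO 3, whose Gsk3a row was high, were below DKO 4 and DKO 5. DKO 2, whose row was low, lay between DKO 3 and DKO 1 at 5.42. Among controls, Math1-Cre 2, whose row was low, had the lowest value, and Math1-Cre 1 at 6.37 lay inside the range of the others. Without the 4 libraries the differences were -0.70 ± 0.19 against Math1-Cre (adjusted p = 0.151, limma) and -0.53 ± 0.17 against no-Cre libraries (adjusted p = 0.215, limma). In DKO 3, Efna1 was below that array's background bound of 5.58.

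The call on Efna1 was at the edge of the threshold. Leaving out 1 library at a time kept it past the threshold only without DKO 5 (adjusted p = 0.0304) or without no-Cre 4 (0.0255), and gave 0.0539 to 0.134 by limma without each of the other 13. Endothelial markers moved with it. The mean of 10 endothelial markers was 6.98 to 7.33 in DKO, 7.28 to 7.73 in Math1-Cre and 7.11 to 7.64 in no-Cre libraries, and all 10 differences were below 0 in DKO against either control, although none passed the threshold. With that mean as a covariate, the Efna1 difference from Math1-Cre was -0.44, with an adjusted p of 0.563 by limma. Under that covariate 0 of 22180 genes passed in this comparison, against 122 without it. The count was also 0 with the array interquartile range as a covariate, with replicate number as a block, or without Math1-Cre 1. Microglia markers moved as well: the mean of 9 was 4.83 to 5.25 in DKO, 5.23 to 5.69 in Math1-Cre and 5.03 to 5.65 in no-Cre libraries. Of these 9, 8 were lower in DKO than in Math1-Cre libraries (median difference -0.44, against -0.26 for the endothelial markers) and 5 had an unadjusted p under 0.05, although none passed after adjustment, and only 1 of the 9 was above the background bound in all 15 libraries. All 8 oligodendrocyte lineage markers were lower in DKO than in Math1-Cre libraries, with a median difference of -0.10. Of all genes, 60.7% were lower, with a median of -0.05. With 11 libraries 3 of the 8 were lower, and their median was 0.01. Mag and Mog of this list were above the background bound in no library. The part of the microglia and oligodendrocyte markers in the Efna1 difference was not tested.

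**Figure D2:**
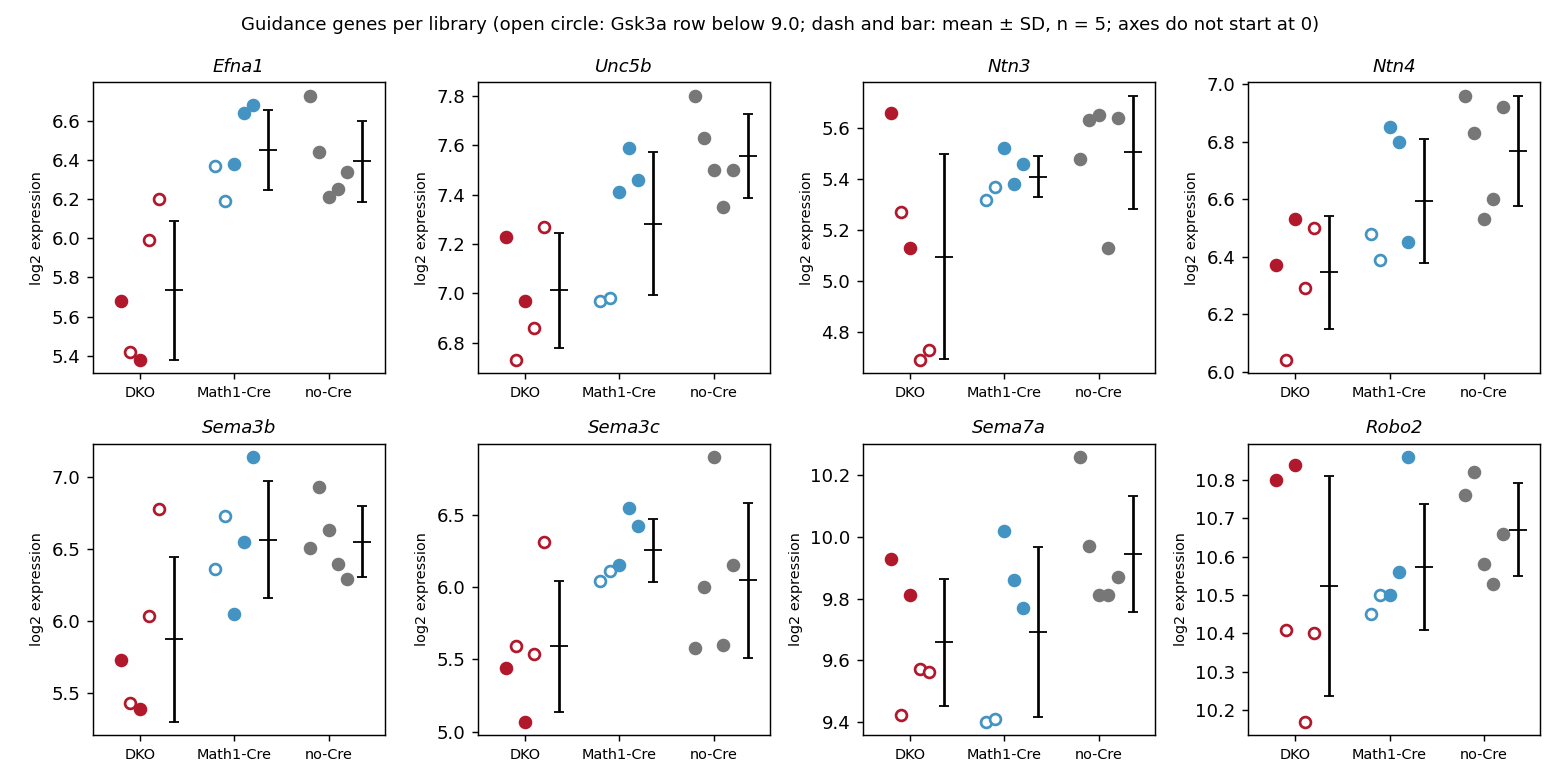
Log2 expression of 8 guidance genes per library in DKO, Math1-Cre and no-Cre groups, with the mean ± SD (n = 5) beside the points and open circles for libraries whose Gsk3a row was below 9.0. For Sema7a all 5 open circles lie below all filled ones. For Efna1 the filled DKO circles (DKO 1 and DKO 3, at 5.68 and 5.38) lie below the open ones of DKO 4 and DKO 5. The open circle of DKO 2, at 5.42, lies between the filled ones.

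Across the families, few guidance genes separated DKO from either control, and most differences were small and below 0. Against Math1-Cre controls with 15 libraries, 1 of 69 guidance genes passed the threshold, where 0.55% of all genes did (0.419% of all genes lower in DKO). The difference was below 0 for 49 of the 69 (71.0%), against 60.7% of all genes, and the median was -0.06 against -0.05 over all genes. An unadjusted p under 0.05 was reached by 11 guidance genes (15.9%), all lower in DKO, against 23% of all genes in either direction and 15.4% with DKO lower. Against no-Cre controls none of the 69 passed, where 0.0721% of all genes did. There, 17 had an unadjusted p under 0.05 (24.6%), 15 of them lower in DKO, against 17.4% of all genes, 11.9% lower and 5.54% higher. The difference was below 0 for 46 of the 69 (66.7%, against 54.1% of all genes), with a median of -0.07 against -0.02.

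With 11 libraries, none of the 69 passed against no-Cre controls (1.08% of all genes did) and none against Math1-Cre controls (0.541% did). The smallest limma adjusted p-values were 0.0562 for Unc5b and 0.151 for Efna1 and Unc5b. An unadjusted p under 0.05 was found for 12 against no-Cre controls, 11 of them lower in DKO, where 12.7% of all genes had one and 8.1% were lower, and for 15 against Math1-Cre controls, 14 of them lower, where 15.9% of all genes had one and 10.3% were lower. Ranges did not overlap, with DKO lower, for 10 guidance genes against no-Cre controls (4.9% of all genes) and for 19 against Math1-Cre controls (16.9% of all genes). Ligands and receptors moved little as classes: their median differences from no-Cre controls were -0.10 for 36 ligands and -0.06 for 33 receptors with 11 libraries, against -0.02 for all genes.

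**Figure D3:**
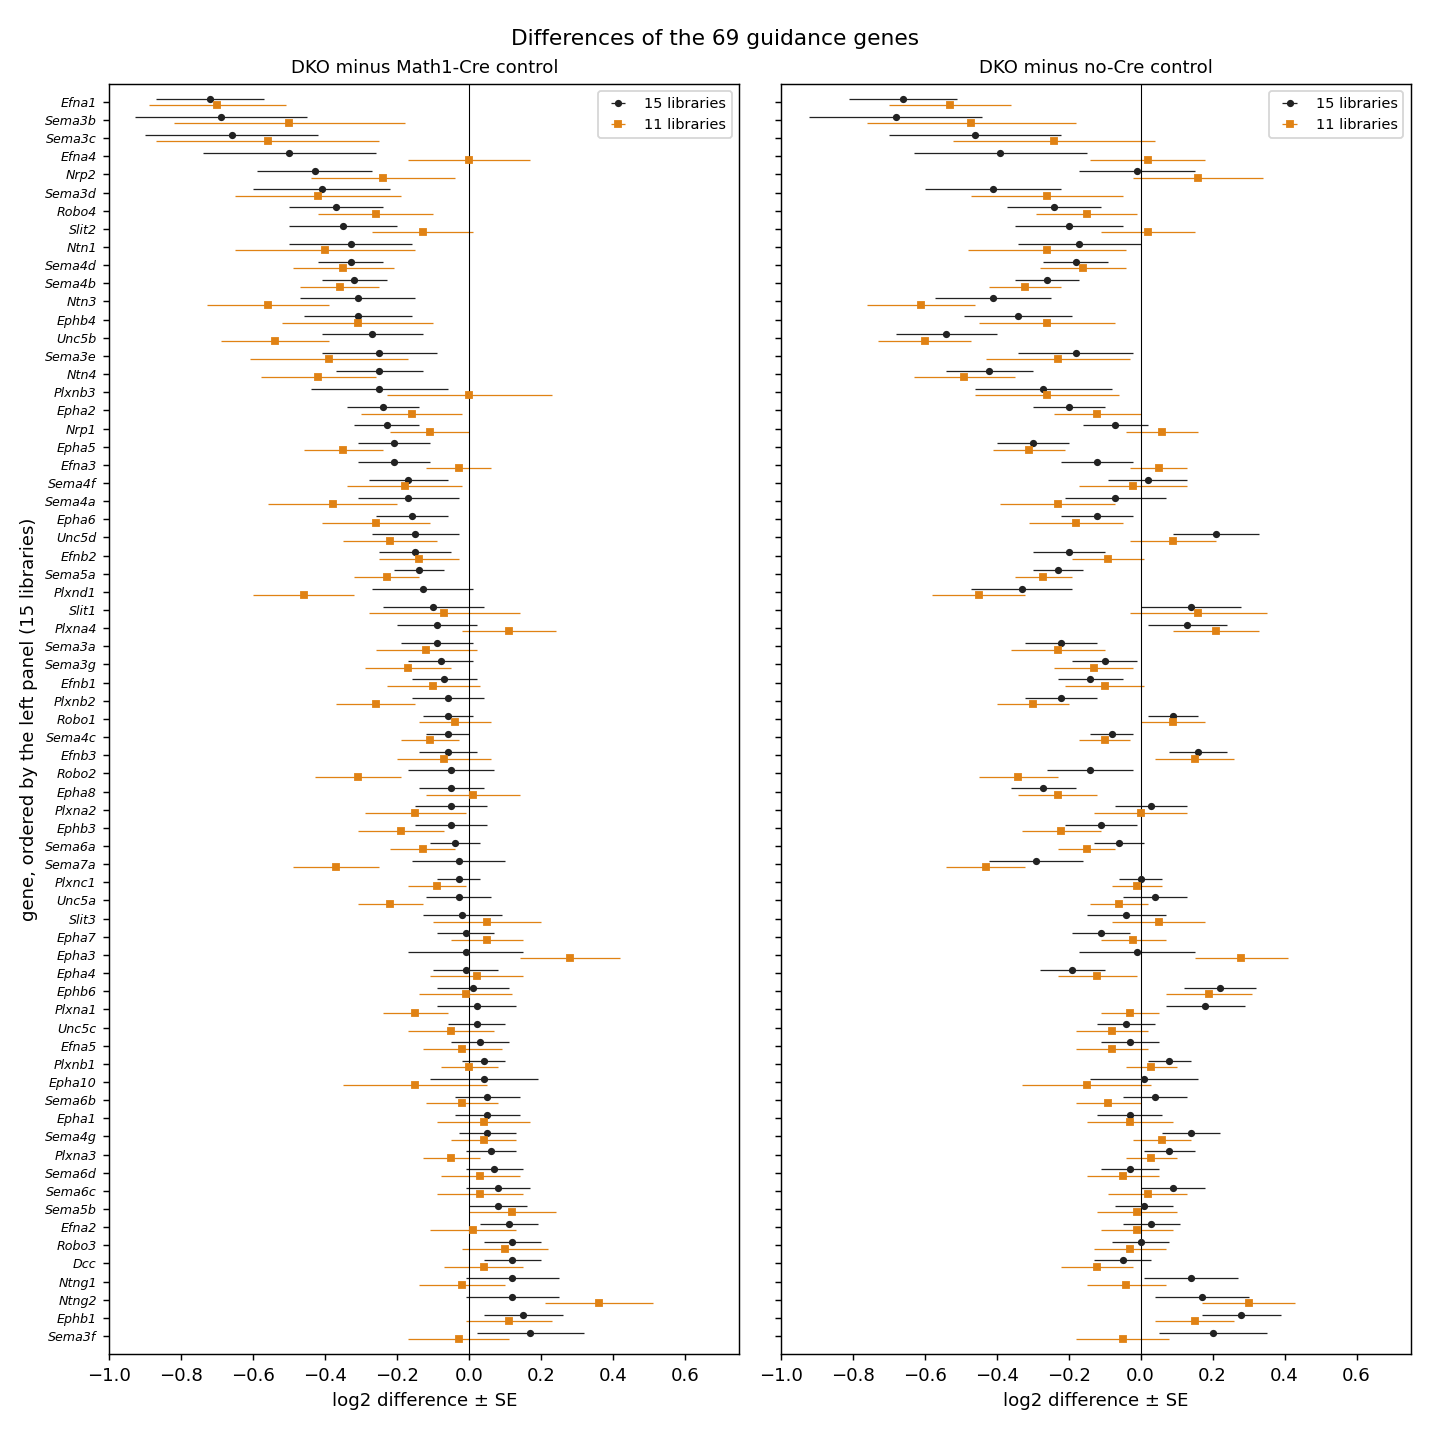
Difference of each of the 69 guidance genes in log2 units with its SE, DKO minus Math1-Cre on the left and DKO minus no-Cre on the right, with 15 libraries in black and 11 in orange. Efna1 is at the top with -0.72 and -0.66, and Efna4 moves to 0.00 and 0.02 when the 4 libraries are left out.

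Among the secreted ligands, the class 3 semaphorins Sema3b and Sema3c had the next largest differences from Math1-Cre controls, with wide spread. Sema3b read 5.73, 5.43, 5.39, 6.04 and 6.78 in DKO 1 to 5, 6.36, 6.73, 6.05, 6.55 and 7.14 in Math1-Cre 1 to 5, and 6.51, 6.93, 6.63, 6.40 and 6.29 in no-Cre 1 to 5. DKO overlapped the controls through DKO 5 alone. Its difference was -0.69 ± 0.24 from Math1-Cre (adjusted p = 0.125, limma) and -0.68 ± 0.24 from no-Cre libraries (0.181). With 11 libraries it was -0.50 ± 0.32 (adjusted p = 0.45, limma) from Math1-Cre and -0.47 ± 0.29 (0.523) from no-Cre libraries. Of the 15, leaving out DKO 5 alone gave -0.92 (0.0371) and -0.90 (0.0468), and neither comparison passed when any other single library was left out. Sema3c read 5.44, 5.59, 5.07, 5.54 and 6.31 in DKO 1 to 5, 6.04, 6.11, 6.15, 6.55 and 6.42 in Math1-Cre 1 to 5, and 5.58, 6.00, 6.90, 5.60 and 6.15 in no-Cre 1 to 5. Its difference from Math1-Cre was -0.66 ± 0.24 (adjusted p = 0.131, limma), and that from no-Cre was -0.46 ± 0.24 (0.335). With 11 libraries they were -0.56 ± 0.31 (adjusted p = 0.387, limma) and -0.24 ± 0.28 (0.761). DKO 5 again lay within both controls, and the other 4 DKO libraries were below all Math1-Cre libraries.

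Among the membrane-bound semaphorins, Sema4b and Sema5a each separated DKO from 1 of the controls. Sema4b, a transmembrane semaphorin, averaged 7.61 ± 0.20 in DKO, 7.94 ± 0.10 in Math1-Cre and 7.87 ± 0.06 in no-Cre libraries (SD, n = 5 each). Its DKO values of 7.29 to 7.79 did not overlap the Math1-Cre values of 7.83 to 8.07 (adjusted p = 0.0754, limma). Sema5a, also transmembrane, read 8.75 to 8.96 in DKO, 8.80 to 9.09 in Math1-Cre and 8.97 to 9.17 in no-Cre libraries, so that DKO and no-Cre libraries did not overlap. Its difference from no-Cre was -0.23 ± 0.07 (adjusted p = 0.13, limma). With 15 libraries such separation with DKO lower was found for 3 guidance genes against no-Cre controls, Efna1, Sema5a and Unc5b (1.96% of all genes), and for 4 against Math1-Cre controls, Epha2, Robo4, Sema4b and Sema4d (5.51% of all genes). Of these, Epha2 was above the background bound in no library. Robo3, also above it in none, was separated from Math1-Cre controls with DKO higher (3.20 to 3.35, against 3.08 to 3.18). Sema6a averaged 10.68 ± 0.12 in DKO, 10.72 ± 0.05 in Math1-Cre and 10.74 ± 0.11 in no-Cre libraries, and its receptor Plxna2 averaged 9.14 ± 0.08 in DKO, 9.19 ± 0.21 in Math1-Cre and 9.12 ± 0.19 in no-Cre libraries (SD, n = 5 each). Neither passed the threshold in any comparison.

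Sema7a, a semaphorin held to the membrane by a lipid anchor, followed the Gsk3a row in place of the label. It read 9.93, 9.42, 9.81, 9.57 and 9.56 in DKO 1 to 5, 9.40, 9.41, 10.02, 9.86 and 9.77 in Math1-Cre 1 to 5, and 10.26, 9.97, 9.81, 9.81 and 9.87 in no-Cre 1 to 5. The 5 libraries with a Gsk3a row below 9.0 lay between 9.40 and 9.57, and the other 10 between 9.77 and 10.26. By label the difference was -0.03 ± 0.13 from Math1-Cre (adjusted p = 0.9, limma) and -0.29 ± 0.13 from no-Cre libraries (0.285). With 11 libraries it was -0.37 ± 0.12 (0.217) and -0.43 ± 0.11 (0.112).

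Robo2, a Slit receptor of developing neurons, was the other guidance gene whose values did not overlap by the Gsk3a row. It ran between 10.17 and 10.50 in the 5 libraries with a low row, and between 10.50 and 10.86 in the other 10, a gap of 0.01. By label it read 10.80, 10.41, 10.84, 10.17 and 10.40 in DKO 1 to 5, 10.45 to 10.86 in Math1-Cre and 10.53 to 10.82 in no-Cre libraries. The 3 low DKO values are those with the low Gsk3a row. With 11 libraries its difference was -0.31 ± 0.12 from Math1-Cre and -0.34 ± 0.11 from no-Cre libraries, with limma adjusted p-values of 0.26 and 0.21. Over all genes 1.51% did not overlap by this row, with 0.843% lower and 0.663% higher in the 5 libraries. Since the row was measured in the same libraries, these ranges are a description with no test. Plxnb2, a plexin active in granule neuron proliferation and migration in mice, and Plxnd1 each had 4 of the 5 libraries with a low row below all 10 others. The share of all genes with 4 of the 5 below was not counted. Plxnb2 averaged 10.42 ± 0.16 in DKO, 10.48 ± 0.19 in Math1-Cre and 10.65 ± 0.13 in no-Cre libraries (SD, n = 5 each). Plxnb3, a plexin of oligodendrocytes near background here, averaged 4.41 ± 0.17 in DKO, 4.66 ± 0.37 in Math1-Cre and 4.68 ± 0.41 in no-Cre libraries (SD, n = 5 each).

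Among receptors, Unc5b, a netrin receptor also made by endothelial cells, had the largest difference between DKO and no-Cre controls. It read 7.23, 6.73, 6.97, 6.86 and 7.27 in DKO 1 to 5, 6.97, 6.98, 7.41, 7.59 and 7.46 in Math1-Cre 1 to 5, and 7.80, 7.63, 7.50, 7.35 and 7.50 in no-Cre 1 to 5. All DKO libraries were below all no-Cre libraries, and the 2 low Math1-Cre values are those with the low Gsk3a row. The difference from no-Cre was -0.54 ± 0.14 (adjusted p = 0.0994, limma) with 15 libraries and -0.60 ± 0.13 (0.0562) with 11. That from Math1-Cre was -0.27 ± 0.14 (0.248) and -0.54 ± 0.15 (0.151). The 11-library comparison with no-Cre passed the threshold without DKO 5 (adjusted p = 0.016, limma), without no-Cre 4 (0.0224) and under 5 other settings (0.0134 to 0.0483). Without the 4 narrowest arrays the adjusted p was 0.0223, but that leaves DKO 2 as the only DKO library.

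All 3 netrins among the genes described, Ntn1, Ntn3 and Ntn4, had lower means in DKO than in either control with 15 libraries. Of all genes, 54.1% were lower against no-Cre and 60.7% against Math1-Cre controls. Ntn3 read 5.66, 5.27, 5.13, 4.69 and 4.73 in DKO 1 to 5, 5.32 to 5.52 in Math1-Cre and 5.13 to 5.65 in no-Cre libraries. DKO 4 and DKO 5 were lowest and DKO 1 was above every control. DKO 3, 4 and 5 and no-Cre 4 were below the background bounds of their arrays. Its 15-library difference was -0.41 ± 0.16 from no-Cre (adjusted p = 0.202, limma) and -0.31 ± 0.16 from Math1-Cre libraries (0.238). With 11 libraries it was -0.61 ± 0.15 (adjusted p = 0.0954, limma) and -0.56 ± 0.17 (0.178), with 2 of the 3 DKO values below the bound. Ntn4, a netrin of basement membranes, read 6.37, 6.04, 6.53, 6.29 and 6.50 in DKO 1 to 5, 6.48, 6.39, 6.85, 6.80 and 6.45 in Math1-Cre 1 to 5, and 6.96, 6.83, 6.53, 6.60 and 6.92 in no-Cre 1 to 5. Its DKO values touched the lowest no-Cre value at 6.53. The difference from no-Cre was -0.42 ± 0.12 with 15 libraries (adjusted p = 0.125, limma) and -0.49 ± 0.14 with 11 (0.152). That from Math1-Cre was -0.25 with 15 libraries (adjusted p = 0.236, limma). Dcc averaged 10.54 ± 0.11 in DKO, 10.42 ± 0.13 in Math1-Cre and 10.60 ± 0.14 in no-Cre libraries, and Unc5c averaged 10.38 ± 0.08 in DKO, 10.36 ± 0.08 in Math1-Cre and 10.42 ± 0.18 in no-Cre libraries (SD, n = 5 each). Both overlapped between all groups.

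The Slit ligands and the remaining ephrins gave no call. Slit2, which repels through Robo1 and Robo2, averaged 8.90 ± 0.36 in DKO, 9.24 ± 0.14 in Math1-Cre and 9.10 ± 0.23 in no-Cre libraries (SD, n = 5 each). Its difference from Math1-Cre was -0.35 ± 0.15 with 15 libraries and -0.13 ± 0.14 with 11, and that from no-Cre was -0.20 ± 0.15 and 0.02 ± 0.13. Robo1 averaged 10.15 ± 0.08 in DKO, 10.21 ± 0.08 in Math1-Cre and 10.06 ± 0.12 in no-Cre libraries. Efna4, another EphA ligand, read 5.57, 6.23, 4.71, 6.29 and 6.01 in DKO 1 to 5, 5.90 to 6.47 in Math1-Cre and 5.84 to 6.47 in no-Cre libraries. Its 15-library difference of -0.50 ± 0.24 from Math1-Cre (adjusted p = 0.229, limma) was 0.00 ± 0.17 without the 4 libraries, and the low values were DKO 1 and DKO 3 alone. Efnb1 averaged 8.44 ± 0.08 in DKO, 8.51 ± 0.17 in Math1-Cre and 8.57 ± 0.16 in no-Cre libraries, and Efnb2 averaged 8.04 ± 0.20 in DKO, 8.19 ± 0.17 in Math1-Cre and 8.24 ± 0.10 in no-Cre libraries (SD, n = 5 each). Among Eph receptors, Epha8 averaged 7.07 ± 0.16 in DKO, 7.13 ± 0.06 in Math1-Cre and 7.35 ± 0.19 in no-Cre libraries (adjusted p = 0.172 against no-Cre, limma). Ephb1 and Ephb6 were the 2 guidance genes with a higher mean in DKO than in no-Cre libraries at an unadjusted p under 0.05, by 0.28 ± 0.11 and 0.22 ± 0.10, and neither passed after adjustment (0.206 and 0.281, limma). With 11 libraries the differences were 0.15 ± 0.11 for Ephb1 and 0.19 ± 0.12 for Ephb6, with unadjusted p-values of 0.198 and 0.138 by limma.

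The libraries labelled DKO 1 and DKO 3 stood outside the range of the other 13 together for 11 guidance genes (15.9%), against 6.44% of all genes, 3.79% lower and 2.66% higher. This set was chosen after its values were seen and gets no test. Lower in both were Efna3, Efna4, Efnb2, Epha3, Nrp1, Sema3c and Slit2, and higher in both were Plxna1, Plxnb1, Sema3f and Sema6b. Epha3, an Eph receptor bound by A-type ephrins, read 8.02 in DKO 1 and 7.92 in DKO 3, against 8.23 to 8.83 in the other 13. Sema3f, a ligand of Nrp2, read 8.72 and 8.54, against 7.79 to 8.26. Plxna1 read 10.79 and 10.70, against 10.11 to 10.47. Nrp1, the main co-receptor of Sema3a, read 7.84 and 7.68, against 7.90 to 8.34. Plxnb1 read 8.73 and 8.71, against 8.44 to 8.64.

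Between the Math1-Cre and no-Cre controls no guidance gene and no other gene passed the limma threshold (0% of all genes with 15 or 11 libraries). An unadjusted p under 0.05 was found for 5 guidance genes with 15 libraries, against 3.23% of all genes, and for 2 with 11, against 2.2%. Nrp2, the neuropilin bound by Sema3f, read 8.87, 8.77, 8.82, 8.99 and 8.55 in Math1-Cre 1 to 5, and 8.05, 8.24, 8.82, 8.11 and 8.69 in no-Cre 1 to 5. The difference was 0.41 ± 0.16 (unadjusted p = 0.0191, adjusted p = 1, limma), and no-Cre 3 and 5 lay within the Math1-Cre range. DKO libraries read 8.01 to 8.74, with a difference of -0.43 ± 0.16 from Math1-Cre (adjusted p = 0.139) and -0.01 ± 0.16 from no-Cre libraries (0.975). With 11 libraries these were -0.24 ± 0.20 (adjusted p = 0.56, limma) and 0.16 ± 0.18 (0.757). Unc5d, a netrin receptor family member, averaged 8.83 ± 0.10 in Math1-Cre and 8.48 ± 0.17 in no-Cre libraries (SD, n = 5 each), a difference of 0.36 ± 0.12 with an adjusted p of 1. Slit1 differed by 0.24 ± 0.14 (adjusted p = 1).

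Several guidance genes tracked markers of other cell types over the 15 libraries. Each of the 69 was set against 3 marker means, which made 207 relations, with permutation p-values from 100000 draws adjusted by Benjamini-Hochberg, of which 1e-05 is the smallest that could be reached before adjustment. With the endothelial mean, 13 had a positive Pearson correlation at an adjusted p under 0.05 and none a negative one, and 11 of the 13 also passed by Spearman's rho. These 13 (18.8%) had r of 0.67 or more, as did 11.2% of all genes. Ephb4, the venous receptor of Efnb2, had r = 0.92 and rho = 0.94 (both permutation p = 1e-05 and adjusted p = 0.00207). Sema3d was next, with r = 0.86 (permutation p = 7e-05, adjusted p = 0.00362) and rho = 0.81 (permutation p = 0.00061, adjusted p = 0.0115). Robo4 had r = 0.80 (permutation p = 0.00037, adjusted p = 0.00766). Efnb2 had r = 0.84 (permutation p = 0.00015, adjusted p = 0.00466) and rho = 0.84 (permutation p = 0.00025, adjusted p = 0.00862). Efna1 had r = 0.82 (permutation p = 0.00018, adjusted p = 0.00466) and rho = 0.82 (permutation p = 0.00045, adjusted p = 0.0103). Unc5b had r = 0.79 (permutation p = 0.00048, adjusted p = 0.00876) and rho = 0.84 (permutation p = 0.00016, adjusted p = 0.00862). Without the 2 libraries farthest from the median, DKO 3 and Math1-Cre 5, r was 0.87 for Ephb4, 0.72 for Efnb2, 0.75 for Efna1 and 0.83 for Unc5b. On deviations from group means r was 0.88, 0.78, 0.68 and 0.69 for the same genes. With the endothelial mean as a covariate, the Unc5b difference between DKO and no-Cre libraries was -0.26 ± 0.14 with 15 libraries (adjusted p = 0.854, limma), against -0.54 ± 0.14 without the covariate. Under that covariate 0 of 22180 genes passed in this comparison, against 16 without it. The count was also 0 with the array interquartile range as a covariate or without DKO 3, so it is not particular to the endothelial mean.

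With the mean of 11 meningeal and pericyte markers, 7 guidance genes had a positive correlation at an adjusted p under 0.05. These 7 (10.1%) had r of 0.68 or more, as did 2.97% of all genes. Among them were Ephb4 (r = 0.87), Efnb2 (0.86), Sema3d (0.82) and Sema3b (0.75). On deviations from group means r was 0.94 for Ephb4 and 0.89 for Efnb2, against 0.88 and 0.78 with the endothelial mean. The relation of these 2 genes is thus not particular to endothelial markers. The range of this mean was 6.59 to 7.51 in DKO, 6.77 to 7.78 in Math1-Cre and 6.90 to 7.36 in no-Cre libraries. Markers of brainstem monoamine neurons, which do not belong to the cerebellum, spread far more, with means of 4.34 to 6.18 in DKO, 3.80 to 7.42 in Math1-Cre and 4.15 to 7.50 in no-Cre libraries. None of the 5 measured markers was above the background bound in all 15 libraries. The libraries fell into 5 between 3.80 and 4.53 and 10 between 5.40 and 7.50, a division made after the values were seen. Over all 15 libraries 5 guidance genes had a positive relation at an adjusted p under 0.05 (Ntn1, Nrp2, Plxna4, Sema4f and Slit1) and 2 a negative one (Efna5 and Dcc). The share of all genes with such relations was not counted. Because the libraries form separate sets, r is given within the 10 alone, as a description with no test. There 10 guidance genes (14.5%) had r of 0.7 or more, as did 8.26% of all genes. The highest was 0.91 for Sema4d, a transmembrane semaphorin that binds Plxnb1, followed by 0.89 for the Eph receptor Epha5, 0.88 for Sema5a, 0.83 for Ntn1, the floor plate netrin, 0.81 for Sema3e, a ligand of Plxnd1, 0.80 for Slit1, a Slit ligand of neurons, 0.78 for Sema3c and 0.77 for Nrp2. The lowest were -0.66 for Ntng2 and -0.59 for Plxnb1. Sema4d, Epha5, Sema5a, Sema3e and Sema3c did not pass over all 15 libraries, and of those that did, r within the 10 was 0.58 for Sema4f, 0.29 for Plxna4, -0.27 for Efna5 and -0.36 for Dcc. Ntn1 averaged 7.24 ± 0.20 in DKO, 7.58 ± 0.26 in Math1-Cre and 7.42 ± 0.41 in no-Cre libraries (SD, n = 5 each). With the monoamine marker mean as a covariate, the difference between Math1-Cre and no-Cre libraries was 0.26 ± 0.11 for Nrp2, against 0.41 ± 0.16 without it, and 0.10 ± 0.09 for Slit1, against 0.24 ± 0.14.

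**Figure D4:**
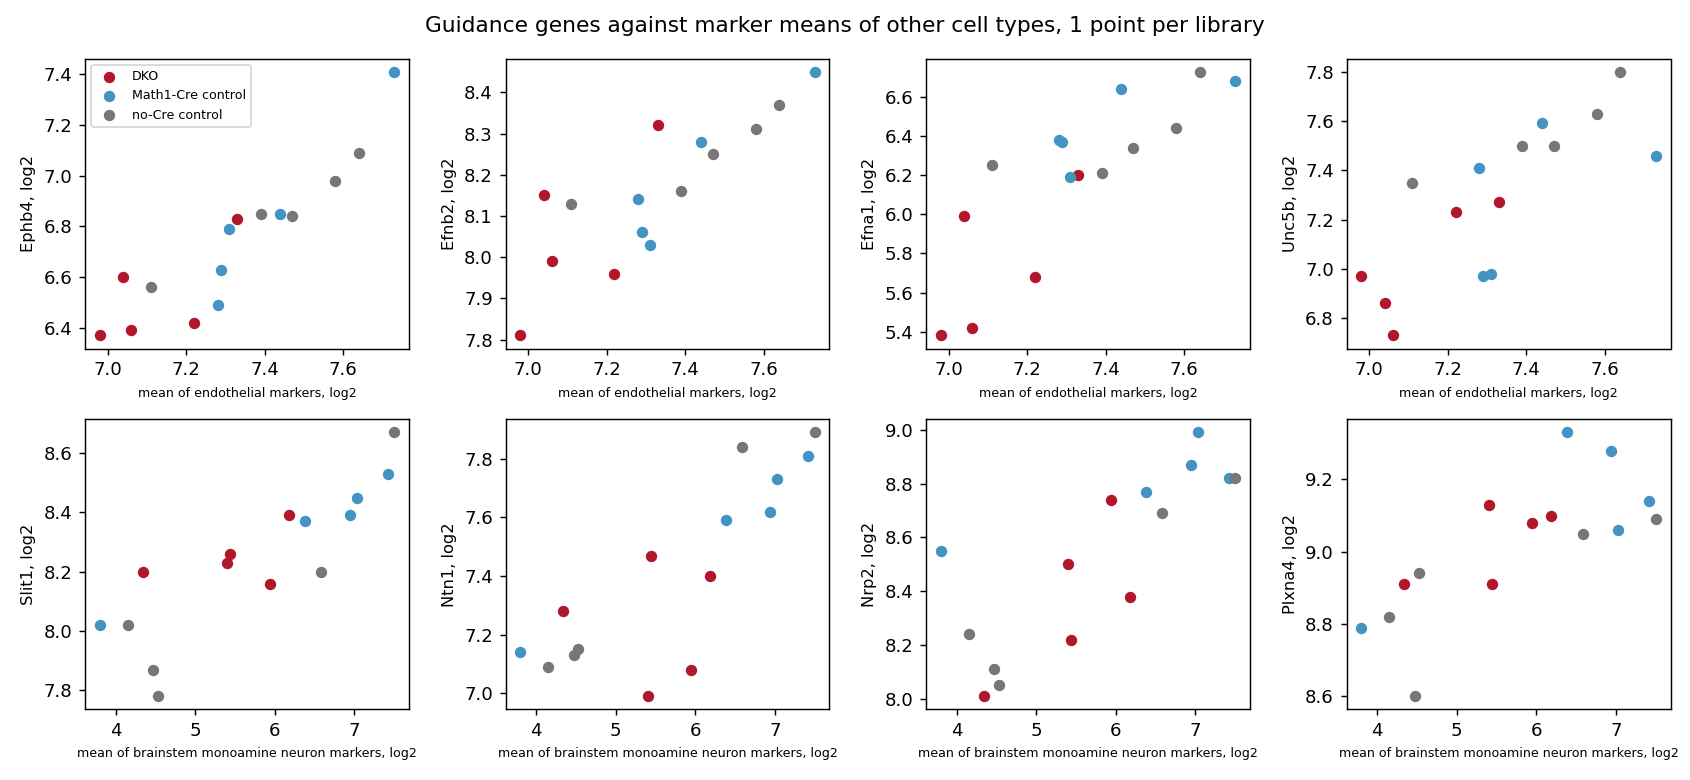
Guidance genes (y axis, log2) against the mean of endothelial markers (upper panels) or brainstem monoamine neuron markers (lower panels, log2), 1 point per library and coloured by group. Ephb4 rises along the endothelial mean with r = 0.92, and the lower panels show the 5 libraries between 3.80 and 4.53 apart from the other 10.

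Genes around the ligands and receptors gave 1 call. Of 25 measured further guidance cues, adhesion molecules and receptors, such as Neo1, Cntn2 and Cxcr4, none passed the threshold in any comparison with 15 or 11 libraries. Of 33 measured intracellular effectors, Dpysl4 alone passed, in the 2 DKO comparisons with 11 libraries. Of all genes, 1.08% passed there against no-Cre and 0.541% against Math1-Cre controls. Dpysl4 encodes a collapsin response mediator protein, of the family that carries semaphorin signals to the cytoskeleton. Dpysl4 read 9.06, 9.80, 9.19, 9.83 and 9.60 in DKO 1 to 5, 9.82, 9.82, 9.23, 8.90 and 9.00 in Math1-Cre 1 to 5, and 9.02, 9.03, 8.87, 8.66 and 9.14 in no-Cre 1 to 5. Its values were 9.60 or above in the 5 libraries with the low Gsk3a row. They were 9.23 or below in the other 10, a separation upwards seen for 0.663% of all genes. With 11 libraries Dpysl4 rose in DKO by 0.80 ± 0.12 (1.74-fold, adjusted p = 0.00774, limma) relative to no-Cre controls. Relative to Math1-Cre controls it rose by 0.70 ± 0.13 (1.62-fold, adjusted p = 0.0432, limma). The 11 were chosen by the Gsk3a row, so these p-values do not test the label apart from that row. With 15 libraries by label the differences were 0.55 ± 0.20 (0.179) and 0.14 ± 0.20 (0.687). The 11-library call against no-Cre was lost without DKO 4 (adjusted p = 0.0593, limma). That against Math1-Cre was lost without any 1 of 10 libraries (0.056 to 0.186) and kept only without no-Cre 4. The other members of the family, Dpysl2, Dpysl3, Dpysl5 and Crmp1, passed in no comparison.

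Markers of the enriched cells also differed in the 11-library comparison. In DKO relative to no-Cre controls, 7 of 9 progenitor markers were lower (median -0.40, against -0.02 over all genes). The share of all genes lower with 11 libraries is not given. Of the 9, 2 passed the threshold, where 1.08% of all genes did. These were Atoh1 and Mycn, which fell by 0.80 ± 0.17 (adjusted p = 0.0495, limma) and 0.64 ± 0.12 (0.0296). Among 8 genes of differentiating granule neurons, Nhlh1 fell by 1.20 ± 0.12 (5.71e-04). Grin2c fell (0.0123) and Gabra6 rose (0.00239), but the sizes are not given, since Grin2c was below the background bound in DKO 2, 4 and 5, at 3.92, 3.78 and 3.49, and Gabra6 was below it in every no-Cre library, at 3.50 to 3.95. With 15 libraries 7 of the 9 progenitor markers were lower against no-Cre controls, where 54.1% of all genes were. Their median difference was -0.15, against -0.02 over all genes. With these 15 none of the 9 progenitor markers and none of the 8 differentiating markers passed against no-Cre controls. The smallest adjusted p-values there were 0.116 for Atoh1 and 0.0611 for Neurod1 by limma. The part of the 11-library shift in the guidance gene values was not tested.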

How the data were processed

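RNA of 15 libraries was measured on whole-transcript Affymetrix arrays, with a lowest RNA integrity number of 7.5 per the labels. The deposited values are log2 expression, and the authors' tools were Partek 6.6 and RMA, with build mm9, per the submitters' processing notes, which were read without settings or order. The labels name no litter, so the p-values reflect only how far these samples vary, which may be technical.

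Of 41345 rows, 23521 had 1 gene symbol, 1814 several and 16010 none. Where several rows named a gene (1082 genes), the one with the highest mean was kept, which left 22180 genes. Among the guidance genes this applied to Ephb1, Plxna1 and Plxnb1. Ntn5 was named only in rows with several symbols, so it is not among the 69 guidance genes. Ephb2 is not among them either. Of the rows with 1 symbol, 23328 matched the RefSeq gene table (GRCm38.p6) by gene identifier. The Gsk3a row carries a further symbol and is outside the tested genes.

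Differences were tested with limma (lmFit, a mean per group, eBayes, 2-sided, Benjamini-Hochberg over all genes, threshold 0.05) on 15 libraries (12 residual degrees of freedom) and on 11 (8 residual degrees of freedom). The fit was tested on simulated data. The members, the lists and the 11 libraries were chosen with earlier results of these data known. Genes were named by a rule: those past the threshold, the 5 largest differences of each of the 6 fits, those divided by the Gsk3a row at 9.0, and a list of cerebellar guidance genes; the others named with values were chosen after their values were seen. Alternatives were quantile normalization, median centring, a filter at the 30th percentile, trend and robust moderation, the mean of all rows of a gene, the 2 groups alone, array weights, replicate number or code cg1724 as a block, array interquartile range as a covariate, and leaving out single libraries. Leaving out the 4 narrowest arrays and the marker means as covariates were added after seeing the data. R 4.3.3, limma 3.58.1, Python 3.11.15, pandas 2.3.3, numpy 2.4.6 and matplotlib 3.10.9 were used.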

Additional observations from a re-analysis of the deposited data

Results flagged for a closer look

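Within groups of 5 libraries, 3 values stood apart by Dixon's ratio of gap to range (critical value 0.71), out of 84 groups looked at, where chance alone sets apart about 1 in 20. In Math1-Cre 5, Efnb1 was 8.80, against 8.36 to 8.47 in the other 4 Math1-Cre libraries. In the same library Robo2 was 10.86, against 10.45 to 10.56. In Math1-Cre 3, Unc5c was 10.49, against 10.31 to 10.34.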

How the results depend on the processing

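Of the 69 guidance genes, the number past the threshold for DKO against Math1-Cre with 15 libraries was 1. It was 0 with quantile normalization, only the 2 groups, the replicate block, the interquartile range, endothelial or monoamine covariate, or when the 4 libraries with a mismatched Gsk3a row were left out. It was 2 with array weights (3.49% of all genes) or without the 4 narrowest arrays (2.76%), 3 after centring (7.97%), and 0 to 3 when leaving out 1 library, with 3 without no-Cre 4 (5.81%). With 11 libraries it was 0, but 6 with array weights (9.01%) and 1 without the narrow arrays (0.861%). For DKO against no-Cre with 15 libraries it was 0, but 4 after centring (2.95%), 2 with array weights (3.33%), 3 without the narrow arrays (3.62%), and 0 to 5 when leaving out 1 library, with 5 without no-Cre 4 (6.97%). With 11 libraries it was 0, but 1 after centring (1.34%), with the low-level filter (1.55%) or with trend and robust moderation (1.2%), 2 without the narrow arrays (2.02%) or with the meningeal covariate (1.48%), 10 with array weights (9.8%), and 0 to 3 when leaving out 1 library, with 3 without no-Cre 4 (4.78%). Leaving out the narrow arrays kept 2 DKO libraries of the 15 and only DKO 2 of the 11, which was assumed to vary like the other groups, so the 11-library calls under that setting rest on 1 DKO library. The count was 0 between the controls under every setting run.

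Efna1 against Math1-Cre passed in 10 of 30 other settings. The replicate numbers did not pair the samples (same-number correlations of -0.303 to 0.299, mixed in sign); with the replicate block its adjusted p was 0.0759 by limma. Under the endothelial covariate, the sign turned for Robo2 against no-Cre with 15 libraries (0.02) and for Sema3b with 11 libraries against Math1-Cre (0.05) and no-Cre (0.00); Efna4 against Math1-Cre went to 0.00 without the 4 libraries. The cause was not tested. Of 1065 other single-gene values, 989 kept direction and side of the threshold, 39 lost the threshold, 33 reached it and those 4 turned.

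Over all genes, centring moved the calls for DKO against Math1-Cre with 15 libraries to 101 higher and 1666 lower, against 29 and 93 as deposited, and shifted the median to -0.13, against -0.05. The number of arrays, and nearness to background for Efna1, Ntn3 and Sema3b, limit these values.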
